A study of Mus musculus with 21 samples.

Results

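The isocitrate dehydrogenase genes *Idh1*, *Idh2*, *Idh3a*, *Idh3b* and *Idh3g* were examined in Neu-driven mouse mammary tumors together with 4 further genes of the tricarboxylic acid (TCA) cycle, *Cs*, *Ogdh*, *Mdh2* and *Fh1*. These 9 genes were taken by symbol from the 49652 gene rows of the deposited tables, and all 9 were among the 19315 genes with enough counts to be tested. They were chosen on earlier results of the same tumors, in which *Idh2* stood out, so the RhoC-against-control values of the 9 genes are given as a description without a test. Total RNA was sequenced from 21 tumors of female virgin mice. All 21 tumors carried FloxNeoNeuNT, an activated Neu (*Erbb2*) cDNA behind a loxP-flanked stop cassette at the endogenous *Erbb2* locus, and MMTV-CreNLST, a Cre transgene that acts in mammary epithelium, where the study describes it as apparently active in fewer cells, or more weakly, than other MMTV-Cre lines. The 12 RhoC tumors were R26(RhoC/+);FloxNeoNeuNT;MMTV-CreNLST, in which Cre also switches on RhoC, a small GTPase, from the Rosa26 locus. Of the 9 control tumors, 7 were Gata4(loxP/+);FloxNeoNeuNT;MMTV-CreNLST and 2 (N-15 and N-17) were FloxNeoNeuNT;MMTV-CreNLST without a *Gata4* loxP allele. The controls came from 9 mice. The RhoC tumors came from 8 mice when R-18, whose label names no mouse, is counted as a mouse of its own: P497 gave 4 tumors (R-13 to R-16) and N9255 gave 2 (R-6 and R-7). Tumors of one mouse are not independent. The ages of the mice were not given in the labels. The study reports that mammary tumors arose much earlier in RhoC mice than in its controls. Cohort and age therefore cannot be told apart in these tumors. Of the sequenced tumors, the study lists squamous cell carcinomas in the RhoC cohort only, with the type of some tumors not determined.

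In the TCA cycle, citrate synthase (*Cs*) joins acetyl-CoA to oxaloacetate, and the citrate formed is rearranged to isocitrate. Isocitrate is oxidized to 2-oxoglutarate by the NAD+-dependent enzyme IDH3, built from subunits encoded by *Idh3a*, *Idh3b* and *Idh3g*, or by NADP+-dependent enzymes, IDH2 in mitochondria and IDH1 in the cytosol and peroxisomes, which also make NADPH and can run in reverse to make isocitrate for lipid synthesis. The 2-oxoglutarate dehydrogenase complex, whose first component is encoded by *Ogdh*, carries the carbon on, fumarase (*Fh1*) hydrates fumarate to malate, and malate dehydrogenase 2 (*Mdh2*) regenerates oxaloacetate.

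On the GRCm38.p6 build the 9 genes lie on 8 chromosomes, with *Idh1* and *Fh1* far apart on chromosome 1. *Idh2* occupies chr7:80094846-80115392 on the minus strand, *Idh1* chr1:65158616-65186500 on the minus strand and *Cs* chr10:128337734-128362479 on the plus strand. The bases next to these 3 gene starts are shown because *Idh2* and *Cs* moved farthest apart between the cohorts and *Idh1* is the cytosolic counterpart of *Idh2*. They are RefSeq promoter windows on GRCm38.p6, cut back to the bases outside the annotated gene, 5′ to 3′ on the gene's strand, with GC boxes (GGGCGG on either strand) and CCAAT boxes (on either strand) in capitals. The *Idh2* stretch is chr7:80115393-80115600, the *Idh1* stretch chr1:65186501-65186729 and the *Cs* stretch chr10:128337477-128337726.
Idh2: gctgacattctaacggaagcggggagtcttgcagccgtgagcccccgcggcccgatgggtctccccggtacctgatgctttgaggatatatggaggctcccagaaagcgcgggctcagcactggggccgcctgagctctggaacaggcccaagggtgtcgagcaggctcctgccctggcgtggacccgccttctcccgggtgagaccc
Idh1: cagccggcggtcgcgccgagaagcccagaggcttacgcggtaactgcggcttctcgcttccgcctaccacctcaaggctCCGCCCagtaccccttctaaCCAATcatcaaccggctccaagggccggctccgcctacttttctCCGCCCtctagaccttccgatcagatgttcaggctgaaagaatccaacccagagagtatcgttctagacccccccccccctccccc
Cs: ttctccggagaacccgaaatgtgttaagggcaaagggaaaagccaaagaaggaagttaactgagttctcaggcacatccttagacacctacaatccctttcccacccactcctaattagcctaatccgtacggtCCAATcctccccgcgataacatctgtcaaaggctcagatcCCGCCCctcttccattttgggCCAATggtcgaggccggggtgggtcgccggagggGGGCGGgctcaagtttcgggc
The *Idh2* stretch of 208 bases has no capitals: the 2 GC boxes and the CCAAT box of its window lie in, or reach into, the 42 bases left out beside the RefSeq start. RefSeq windows were found for 8 of the 9 genes (*Idh3a* had none). In the 250 bases before the RefSeq start, 6 of the 8 held a GC box and 6 of the 8 a CCAAT box, against 32.7% and 33.8% of all 32851 promoter windows. The windows of the 8 ran from 46.8% G and C bases (*Idh3b*) to 67.2% (*Idh2*), beside a median of 52.4% over all windows. The shares were not adjusted for this. None of the 8 held the estrogen-related receptor element TCAAGGTCA, the NRF1 core GCGCATGCG or the E box CACGTG, which were found on either strand in 0.387%, 1.45% and 6.02% of all windows. A match or its absence describes letters in this window only.

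Each library held between 47309780 and 100741339 gene-assigned reads, and each of the 9 genes had at least 1804 reads in every tumor, so that counting error was small beside the spread between tumors. The cohort labels were not separable by *Rhoc* itself: its normalised level was 22.5 to 145.6 CPM (counts scaled to a common library size with TMM factors, median 89.3) in RhoC tumors and 26.1 to 172.7 CPM (median 48.8) in controls, with an edgeR log2 difference of 0.19 (adjusted p = 0.774; 0.076 without N-9 to 0.43 without N-8, and 0.014 without mouse P497), and whether transgene reads fall in this row is not stated. *Erbb2*, the driver, was at 260 to 1896 CPM in RhoC tumors and 58.6 to 2731 CPM in controls (log2 difference −0.73, adjusted p = 0.371, and −0.06 over only the 8 tumors whose numbers both cohorts hold, or 0.77 with the number as a replicate block). *Gata4* was at 0 to 5.44 CPM (median 0) in RhoC tumors and 0 to 50.6 CPM (median 0.0183) in controls and did not pass the filter on low counts. Several tumors held signal of other tissues: summed skeletal muscle markers reached 5945 CPM in control N-17 and adipocyte markers 627.7 CPM in the same tumor, and the study lists R-6, R-13 and R-14 as squamous cell carcinomas.

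*Idh2* was lower in RhoC tumors than in controls. Of the other 8 genes, 6 lay higher or near the control level and the remaining 2, *Idh3b* and *Idh3g*, lay lower by less. Of 13 further genes of the cycle outside the 9, 5 were higher and 8 lower. Among these, *Sucla2* at −0.72 and *Dld* at −0.63 had log2 fold changes close to that of *Idh2*. Over the 9 genes, 6 fitted log2 fold changes were above 0 and 3 below, with a median of 0.14, beside 9577 above 0, 9738 below and a median of −0.0052 over all 19315 genes tested. With edgeR's quasi-likelihood test and Benjamini-Hochberg adjustment, 43 of 19315 genes (0.223%) differed between the cohorts, 25 (0.129%) of them lower in RhoC tumors, and with DESeq2 1439 genes (5.71%). Leaving out single tumors moved the edgeR count from 14, without N-9, to 346, without N-15. Of the 9 genes, 1 was called by either tool, *Idh2*, the gene on which the choice of the 9 rested. None of the 9 had cohorts that did not overlap in CPM, which was the case for 3 genes of all tested (0.0155%). In bulk tissue, fewer cells of a type and less RNA per cell cannot be told apart.

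**Figure D1:**
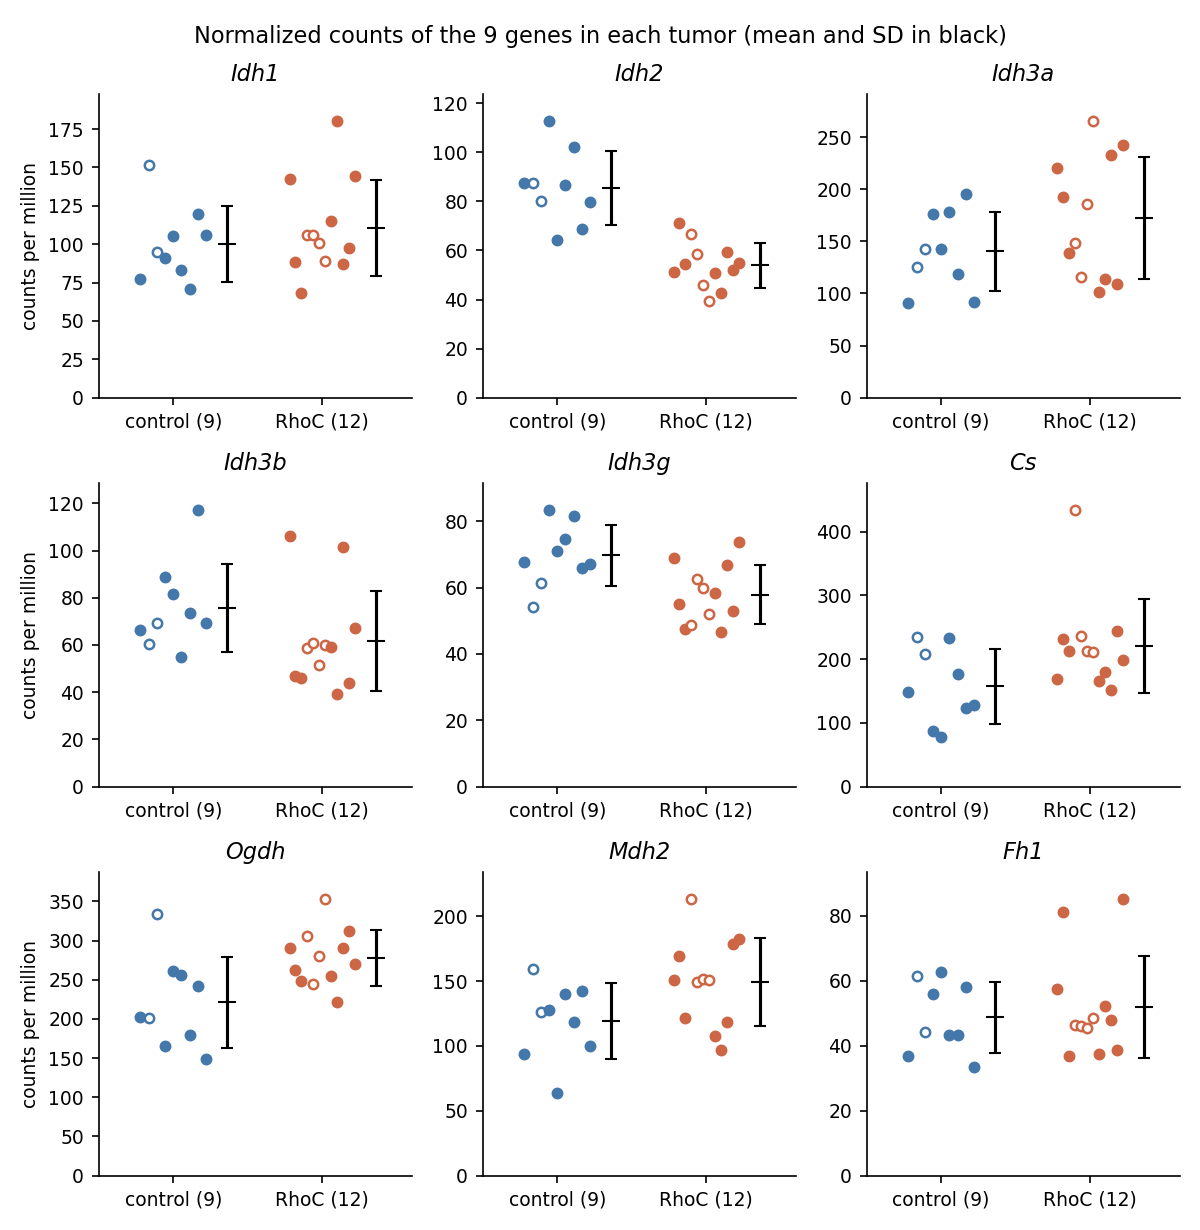
Normalised level (TMM-scaled CPM, linear axes from 0) of each of the 9 genes in each of 9 control and 12 RhoC tumors, with the mean and SD of each cohort in black; hollow points are the 2 controls without a *Gata4* loxP allele and the 4 tumors of mouse P497. *Idh2* was at 64.2 to 112.7 CPM in controls and 39.3 to 71.3 CPM in RhoC tumors, with 10 of 12 RhoC tumors below the lowest control.

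*Idh2*, the mitochondrial NADP+-dependent enzyme, ranged from 64.2 to 112.7 CPM with a median of 86.6 in the 9 controls and from 39.3 to 71.3 CPM with a median of 53.4 in the 12 RhoC tumors. The ranges overlapped through 2 RhoC tumors, R-10 at 71.3 and R-13 at 66.7 CPM, which lay above the lowest control, N-4; the other 10 RhoC tumors were below every control, and all 12 were below the control median. The cohort means were 85.5 ± 15.1 CPM (SD, n = 9) and 53.9 ± 9.28 CPM (SD, n = 12), and the fitted log2 fold change was −0.66 (SE 0.12), which is 0.631 times the control level. The relative spread was about equal in both cohorts, with a coefficient of variation of 17.6% in controls and 17.2% in RhoC tumors. Within the RhoC tumors the lowest value, in R-16, and the second-highest, in R-13, came from the same mouse, P497. Without control N-17, the tumor with muscle and fat signal, the log2 fold change of *Idh2* was −0.68, without N-15 −0.66, and without R-6, R-13 and R-14 −0.71. The direction held in all 31 alternative settings (−0.87 to −0.61). The edgeR call, no test here since the gene was chosen on it, was absent with library size in place of TMM, with counts summed over each mouse, with mouse as a random effect, without mouse P497, without control N-7, and in both fits of only 8 tumors.

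Set against the other 8 genes within the same tumor, the difference in *Idh2* was larger. These 8 were chosen on the same contrast and leave out 13 further genes of the cycle, whose median log2 fold change was −0.10. The larger difference is therefore described for these partners and not for the whole cycle. The log2 CPM of *Idh2* minus the mean log2 CPM of the other 8 genes ranged from −0.81 to 0.14 in controls (median −0.35) and from −1.60 to −0.72 in RhoC tumors (median −0.98). All 12 RhoC tumors were below the control median and 10 were below the lowest control, N-8; the exceptions were R-10 and R-12. The value was above 0 in 3 tumors, N-1, N-3 and N-7, all controls. The means were −0.28 ± 0.32 (SD, n = 9) and −1.08 ± 0.28 (SD, n = 12), a difference of −0.80. It was between −1.09 and −0.75 in the 31 alternative settings. The mean of the other 8 genes was itself slightly higher in RhoC tumors, 6.81 ± 0.19 against 6.67 ± 0.17 log2 CPM, a difference of 0.14 that was smaller than either SD. Against single partners, *Idh2* minus *Idh1* averaged −0.21 ± 0.50 in controls and −1.01 ± 0.51 log2 CPM in RhoC tumors, with 8 of 12 RhoC tumors below the lowest control. *Idh2* minus the mean of the 3 IDH3 subunit genes was −0.07 ± 0.35 in controls and −0.62 ± 0.40 in RhoC tumors, with 5 of 12 below the lowest control. The widest shift was between the first enzyme of the cycle and *Idh2*: *Cs* minus *Idh2* was 0.80 ± 0.59 log2 CPM in controls and 1.997 ± 0.365 in RhoC tumors.

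**Figure D2:**
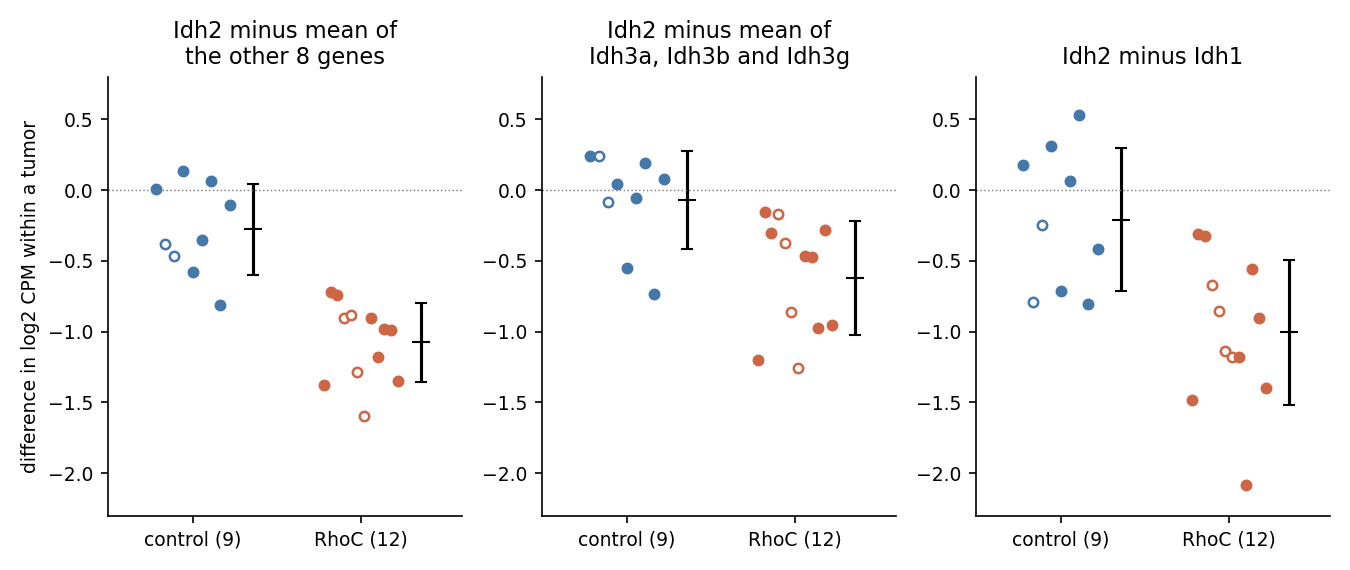
Log2 CPM of *Idh2* minus that of partner genes of the cycle in the same tumor, for each of 9 control and 12 RhoC tumors; black marks are cohort means with SD, and hollow points are the 2 controls without a *Gata4* loxP allele and the 4 tumors of mouse P497. Against the mean of the other 8 genes, controls averaged −0.28 and RhoC tumors −1.08, and only R-10 and R-12 reached into the control range.

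The other isocitrate dehydrogenase genes did not share one direction. *Idh1*, the cytosolic and peroxisomal NADP+-dependent enzyme, was at 70.6 to 151.7 CPM (median 95.2) in controls and at 68.4 to 180.2 CPM (median 103.3) in RhoC tumors. Its RhoC tumors spanned the whole control range, and its log2 fold change was 0.14 (SE 0.17), running from 0.06 without R-2 to 0.24 without N-15 when single tumors were left out. *Idh3a*, on chr9:54586334-54604661 (plus strand), encodes the catalytic subunit of IDH3. It was at 90.5 to 195.8 CPM (median 142.9) in controls and 101.1 to 265.2 CPM (median 167.0) in RhoC tumors. Of the RhoC tumors, 4 of 12 lay above the highest control, and the log2 fold change was 0.30 (SE 0.20), or 0.53 over only the 8 tumors with shared numbers.

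The partner subunits of IDH3 went the other way. *Idh3b*, on chr2:130279309-130284547 (minus strand), was at 55.1 to 117.1 CPM (median 69.5) in controls and 39.1 to 106.0 CPM (median 58.9) in RhoC tumors, a log2 fold change of −0.29 (SE 0.18; −0.19 without N-8, 0.04 over only the 8 tumors with shared numbers). *Idh3g*, on chrX:73778963-73786897 (minus strand), was at 54.1 to 83.4 CPM (median 67.7) in controls and 46.5 to 73.9 CPM (median 56.7) in RhoC tumors, a log2 fold change of −0.27 (SE 0.11), or −0.15 over those 8 tumors. For each of them 10 of 12 RhoC tumors were below the control median and 5 of 12 below the lowest control, so the cohorts overlapped more than for *Idh2*, and R-2 held the lowest value of both. Per transcript length (FPKM), *Idh3a* exceeded *Idh3b* by a log2 difference of 0.15 ± 0.39 in controls and 0.74 ± 0.44 in RhoC tumors, and *Idh3g* by 0.12 ± 0.41 and 0.66 ± 0.44 (SD over tumors).

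Among the other enzymes of the cycle, *Cs* and *Ogdh* were above the control median in all 12 RhoC tumors. *Cs* was at 78.2 to 234.2 CPM (median 149.1) in controls and 151.4 to 433.7 CPM (median 211.7) in RhoC tumors. Even so only 3 RhoC tumors exceeded the highest control. Of the 9 genes *Cs* varied most over all tumors, 5.54-fold between control N-4 and RhoC tumor R-13, and most within controls (coefficient of variation 37.43%). Within RhoC tumors it varied by 33.25%, less than *Idh3b* at 34.46%. The log2 fold change of *Cs* was 0.49 (SE 0.21), but 0.29 without R-6, R-13 and R-14, 0.30 without mouse P497 and 0.02 over only the 8 tumors with shared numbers. *Ogdh*, on chr11:6291633-6356642 (plus strand), was at 148.4 to 334.3 CPM (median 201.9) in controls and 221.1 to 352.9 CPM (median 275.1) in RhoC tumors, a log2 fold change of 0.33 (SE 0.14). Its highest control, N-17, the tumor with muscle signal, lay above all RhoC tumors but R-16, and without N-17 the log2 fold change was 0.43.

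*Mdh2*, on chr5:135778480-135790398 (plus strand), was at 63.7 to 159.2 CPM (median 126.4) in controls and 97.0 to 213.1 CPM (median 150.9) in RhoC tumors. Here 4 of 12 RhoC tumors were above the highest control and 4 below the control median, with a log2 fold change of 0.33 (SE 0.16), or 0.19 with counts summed over each mouse. The lowest value of *Mdh2*, like that of *Cs* and of *Idh2* among controls, was in N-4. *Fh1*, on chr1:175600374-175625635 (minus strand), was at 33.5 to 62.7 CPM (median 44.2) in controls and 36.8 to 85.0 CPM (median 47.0) in RhoC tumors. Its cohorts overlapped nearly throughout, with a log2 fold change of 0.09 (SE 0.17). This ran from 0.0039 without R-7 to 0.14 without N-15 when single tumors were left out, and was 0.26 over only the 8 tumors with shared numbers. Reads of *Idh3b* and *Nop56*, and of *Fh1* and *Kmo*, which overlap on opposite strands, can be told apart only if counting used strand, which is not stated, and *Cs* contains a small RNA gene and has a related gene, *Csl*.

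**Figure D3:**
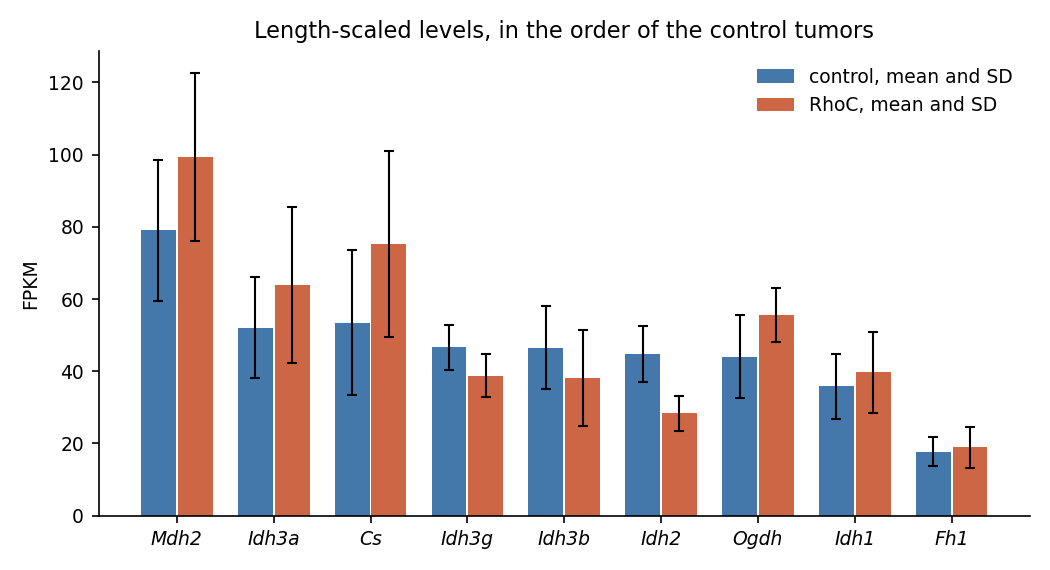
Level per transcript length (FPKM as scaled by the authors, linear axis) of the 9 genes, as bars at the mean with SD over 9 control and 12 RhoC tumors, in the order of the controls. *Idh2* averaged 44.8 FPKM in controls, between *Idh3b* and *Ogdh*, and 28.4 FPKM in RhoC tumors, above *Fh1* alone.

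Levels of different genes were compared per length, with the FPKM values deposited by the authors. In controls the order by mean log2 FPKM was, with means ± SD (n = 9), *Mdh2* at 79.0 ± 19.6 FPKM, *Idh3a* at 52.1 ± 14.01, *Cs* at 53.5 ± 20.1, *Idh3g* at 46.6 ± 6.13, *Idh3b* at 46.5 ± 11.5, *Idh2* at 44.8 ± 7.78, *Ogdh* at 44.1 ± 11.5, *Idh1* at 35.9 ± 9.01 and *Fh1* at 17.7 ± 4.02. The genes from *Idh3a* down to *Idh1* formed a chain whose neighbours did not differ beyond the spread of their difference over tumors, whereas *Mdh2* stood above and *Fh1* below it. In RhoC tumors (n = 12) the order was *Mdh2* at 99.4 ± 23.3 FPKM, *Cs* at 75.2 ± 25.9, *Idh3a* at 64.0 ± 21.6, *Ogdh* at 55.6 ± 7.48, *Idh1* at 39.7 ± 11.2, *Idh3g* at 38.7 ± 5.93, *Idh3b* at 38.1 ± 13.2, *Idh2* at 28.4 ± 4.87 and *Fh1* at 18.9 ± 5.62. Here *Mdh2* and *Cs*, *Ogdh* and *Idh1*, and *Idh2* and *Fh1* differed beyond that spread, and *Idh2* and *Idh3b* did not. *Idh2* thus stood at place 6 in controls and place 8 in RhoC tumors. Between the NADP+-dependent enzymes the order of the means turned, but in neither cohort beyond that spread. Log2 FPKM of *Idh2* minus *Idh1* averaged 0.34 ± 0.50 in controls and −0.46 ± 0.51 in RhoC tumors. Among controls, N-4, N-8 and N-15 had less *Idh2* than *Idh1*, and among RhoC tumors, R-10 and R-12 had more.

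Tumors of one mouse differed almost as much as tumors of different mice for some of the genes. The 4 tumors of P497 spanned 0.76 log2 units in *Idh2*, 88.9% of the range over all RhoC tumors, while the 2 tumors of N9255 were 0.0716 apart. For *Idh3a* the P497 tumors covered 85.8% and the N9255 tumors 82.7% of the range, and for *Cs* the P497 tumors covered 68.5%. *Fh1* showed the reverse split, with 7.94% of the range within P497 and 94.5% between R-6 and R-7 of N9255. *Idh1* and *Idh3b* varied little within P497, by 18.2% and 16.2% of their ranges.

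The control genotypes were compared with each other, a contrast that did not enter the choice of the genes. *Idh2* averaged 85.9 CPM in the 7 controls with a *Gata4* loxP allele and 83.9 CPM in the 2 without, a log2 difference of 0.03 (SE 0.27). The largest difference among the 9 genes was for *Cs*, at 139.3 CPM with and 220.8 CPM without the allele (log2 difference −0.66, SE 0.38, edgeR adjusted p = 0.760). *Idh1*, *Ogdh* and *Mdh2* were also lower with the allele, by −0.41, −0.36 and −0.35, and *Idh3g* was higher by 0.34 (SE 0.22, edgeR adjusted p = 0.773). None of the 9 was called by edgeR, beside 2 of 21846 genes tested (0.00915%), and 0 of the 9 had an unadjusted p under 0.05, beside 1528 of all genes (6.99%). The number of genes called was 0 or 1 when 1 of the 7 controls with the allele was left out. It was 61 without N-15 and 57 without N-17, fits in which the other arm was a single tumor assumed to vary like the rest. In simulated counts of this design, none of 200 changed genes was called, so this design could miss differences of the sizes simulated.

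Whether the genes varied together was examined over the 17 mice after subtracting the cohort means, a choice made after the values were seen. Of 36 pairs, 24 correlated positively and 0 passed Benjamini-Hochberg adjustment over the 36 (6 had an unadjusted p under 0.05 by Pearson's r), and 18 of 36 kept the same sign in both cohorts. *Cs* and *Mdh2*, enzymes that follow each other in the cycle, had r = 0.625 and Spearman's rho = 0.529 (permutation p = 0.0109 and 0.0347, adjusted 0.132 and 0.208), with r = 0.599 without the 2 mice farthest from the median of *Cs*, 0.639 within controls and 0.657 within RhoC mice. *Idh3b* and *Idh3g*, subunits of one enzyme, had r = 0.609 and rho = 0.615 (permutation p = 0.0134 and 0.0135, adjusted 0.132 and 0.162), but r was 0.434 without the 2 farthest mice, 0.220 within controls and 0.886 within RhoC mice. *Idh3a* correlated positively with *Idh3b* (r = 0.578 and rho = 0.471, permutation p = 0.0208 and 0.0738, adjusted 0.132 and 0.332; 0.659 without the 2 farthest mice, 0.447 within controls and 0.683 within RhoC mice), although their cohort differences had opposite signs, and with *Fh1* (r = 0.579 and rho = 0.571, permutation p = 0.0200 and 0.0217, adjusted 0.132 and 0.195; 0.435 without the 2 farthest mice, 0.651 within controls and 0.510 within RhoC mice). *Idh1* and *Idh2* went in opposite directions, with r = −0.553 and rho = −0.598 (permutation p = 0.0221 and 0.0133, adjusted 0.132 and 0.162), −0.439 within controls and −0.699 within RhoC mice, and −0.564 without the 2 farthest mice. *Idh3b* and *Cs* were also inversely related, with r = −0.526 and rho = −0.632 (permutation p = 0.00986 and 0.00508, adjusted 0.132 and 0.162), −0.521 without the 2 farthest mice, −0.671 within controls and −0.555 within RhoC mice.

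Over the 21 tumors, with cohort means subtracted, the genes most like *Idh2* among 14515 were *Pitrm1*, a mitochondrial peptidase (r = 0.769), *Fbxo5*, an inhibitor of the anaphase-promoting complex (r = 0.766), *Nop16* (r = 0.762), *Parpbp* (r = 0.758) and *Hdgf* (r = 0.758). The median r over all genes was −0.0031 and the 95th percentile 0.495, and the tumors share mice and normalisation, so these values are a description. Without subtracting the cohort means, the same 5 genes had r between 0.168 and 0.610, and 0 of them were among the 5 most alike. Of the cycle, *Mdh2* was nearest to *Idh2* at r = 0.43, at place 1154 in the list, followed by *Cs* at 0.30 and *Idh3g* at 0.27, but without subtracting the cohort means these were −0.12, −0.25 and 0.59. *Ogdh* and *Idh1* lay at the other end, at −0.34 and −0.35.

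The surrounding pathway was taken from 8 lists of 166 genes that hold none of the 9. No gene of the lists was called by edgeR (0 of 166, against 0.223% of all genes), 28 were higher and 18 lower at an unadjusted p under 0.05 (beside 2033 and 1918 of all genes, together 20.5%), and DESeq2 called 12 (against 5.71% of all genes), 8 higher and 4 lower. With only the 7 *Gata4* loxP/+ controls edgeR called 5 of them, *Dld*, *Sucla2*, *Slc25a11*, *Cox8a* and *Esrra*, beside 2.22% of all genes, and without N-15 it called 4, beside 1.77%. Of the 13 further genes of the cycle, 5 were higher and 8 lower, with a median log2 fold change of −0.10 that turned to 0.03 without N-15 and to 0.06 with only the 7 *Gata4* loxP/+ controls. The smallest p among them were those of *Dld*, the dihydrolipoamide dehydrogenase subunit that serves the OGDH and pyruvate dehydrogenase complexes, and *Sucla2*, a subunit of succinyl-CoA synthetase. *Dld* averaged 77.1 CPM in RhoC tumors and 119.3 in controls (log2 fold change −0.63, SE 0.18, edgeR adjusted p = 0.0886, DESeq2 adjusted p = 0.0302), with 11 of 12 RhoC tumors below the control median, but −0.09 over only the 8 tumors with shared numbers. *Sucla2* averaged 38.9 and 64.0 CPM (log2 fold change −0.72, SE 0.21, edgeR adjusted p = 0.0897, DESeq2 adjusted p = 0.0329), with 12 of 12 below it, and a log2 fold change of −0.44 without N-4 and −0.30 over those 8 tumors.

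**Figure D4:**
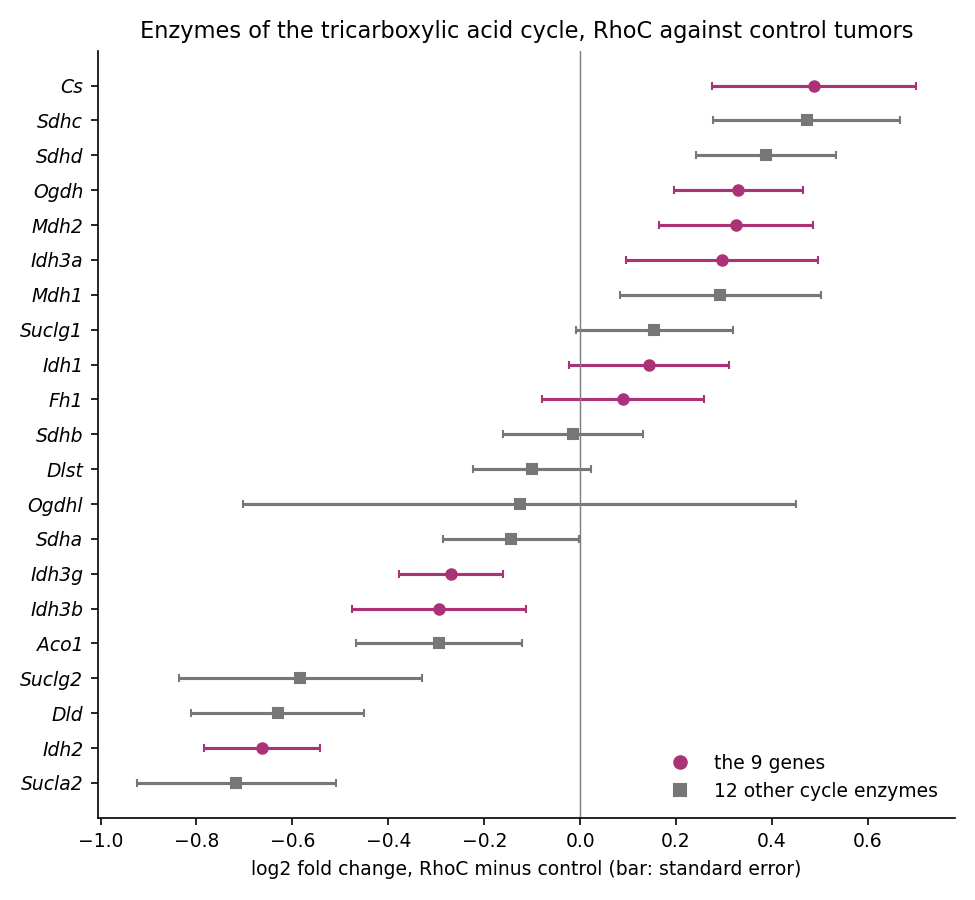
Log2 fold change (RhoC over control, edgeR, with SE) of the 9 genes (circles) and of 12 further genes (squares) of the TCA cycle. *Idh2* at −0.66, *Dld* at −0.63 and *Sucla2* at −0.72 lay lowest and *Cs* at 0.49 highest.

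Pyruvate entry genes were lower more often than higher, 9 of 13, with a median of −0.14, or 0.10 over only the 8 tumors with shared numbers, and none called by edgeR. *Pdk4*, a kinase that turns off pyruvate dehydrogenase, averaged 9.83 CPM in RhoC tumors and 40.2 CPM in controls (log2 fold change −2.03, SE 0.69, edgeR adjusted p = 0.127, DESeq2 adjusted p = 0.0438), but 7 of 12 RhoC tumors were above the control median, and over only the 8 tumors whose numbers both cohorts hold the difference was 0.37. Without N-9 it was −1.32. *Pdk1* had a log2 fold change of −0.82 (SE 0.28, edgeR adjusted p = 0.129), or −0.53 without N-3. Among genes of citrate export and NADPH supply, 9 of 12 were higher, with a median of 0.23. The smallest p were those of *Slc25a11*, the mitochondrial carrier that exchanges malate and 2-oxoglutarate, with means of 63.4 CPM in RhoC tumors and 41.6 CPM in controls (a log2 fold change of 0.61, SE 0.18, edgeR adjusted p = 0.100, DESeq2 adjusted p = 0.0364), and of the citrate carrier *Slc25a1* at 0.41 (SE 0.17, edgeR adjusted p = 0.182). Of 13 genes that make or use 2-oxoglutarate or 2-hydroxyglutarate, 9 were higher, with a median of 0.18. *Adhfe1*, a hydroxyacid-oxoacid transhydrogenase, had −1.39 (SE 0.56, edgeR adjusted p = 0.176), but −0.41 without N-17. *Glud1*, glutamate dehydrogenase, had 0.39 (SE 0.19, edgeR adjusted p = 0.238), but 0.13 without R-6, R-13 and R-14.

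The nuclear genes of the respiratory chain and ATP synthase, which take up the NADH of the cycle, lay mostly above 0: 53 of 72 were higher, with a median log2 fold change of 0.21, and DESeq2 called 4, a share near the 5.71% of all genes. *Cox8a* and *Cox6a1*, subunits of cytochrome c oxidase, were above the control median in 12 of 12 RhoC tumors, with means of 111.4 and 61.1 CPM for *Cox8a* and 67.6 and 40.0 CPM for *Cox6a1* (log2 fold changes 0.87 and 0.76, edgeR adjusted p = 0.0536 and 0.0714, DESeq2 adjusted p = 0.00354 and 0.0129), and *Cox6a1* was at 0.50 over only the 8 tumors with shared numbers. The 13 protein genes of the mitochondrial genome all had an edgeR fitted value below 0, with a median of −0.58, none called by edgeR and 3 at an unadjusted p under 0.05 (a share near the 20.5% of all genes), but this direction rested on control N-4: without it the median was 0.15. The median was also above 0 over only the 8 tumors with shared numbers and −0.03 with mouse as a random effect. With DESeq2 the median was −0.23, and *mt-Nd2*, *mt-Nd4*, *mt-Nd4l*, *mt-Nd5* and *mt-Atp6* were above 0. *mt-Nd6* was at −1.07 (SE 0.43, edgeR adjusted p = 0.176), or −0.46 without N-4, and *mt-Co2* at −0.92 (SE 0.38, edgeR adjusted p = 0.184), or −0.31 without it. Reads shared with near-identical nuclear copies were dropped in counting, so these values are uncertain. In glycolysis and lactate transport 15 of 18 genes were higher (median 0.27), with *Pgam1* at 0.94 (SE 0.30, edgeR adjusted p = 0.112, DESeq2 adjusted p = 0.0445), or 0.42 without the 3 squamous carcinomas, and the lactate and pyruvate carrier *Slc16a1* at −1.26 (SE 0.37, edgeR adjusted p = 0.0897, DESeq2 adjusted p = 0.0274), or −0.83 without N-8 and −0.60 over only the 8 tumors with shared numbers. Among 12 genes of mitochondrial biogenesis 4 were higher (median −0.13), with *Esrra*, a nuclear receptor that acts on oxidative genes, with means of 25.1 CPM in RhoC tumors and 12.4 CPM in controls (a log2 fold change of 1.01, SE 0.26, edgeR adjusted p = 0.0714, DESeq2 adjusted p = 0.00851) and its coactivator *Ppargc1b* at −0.95 (SE 0.32, edgeR adjusted p = 0.127).

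**Figure D5:**
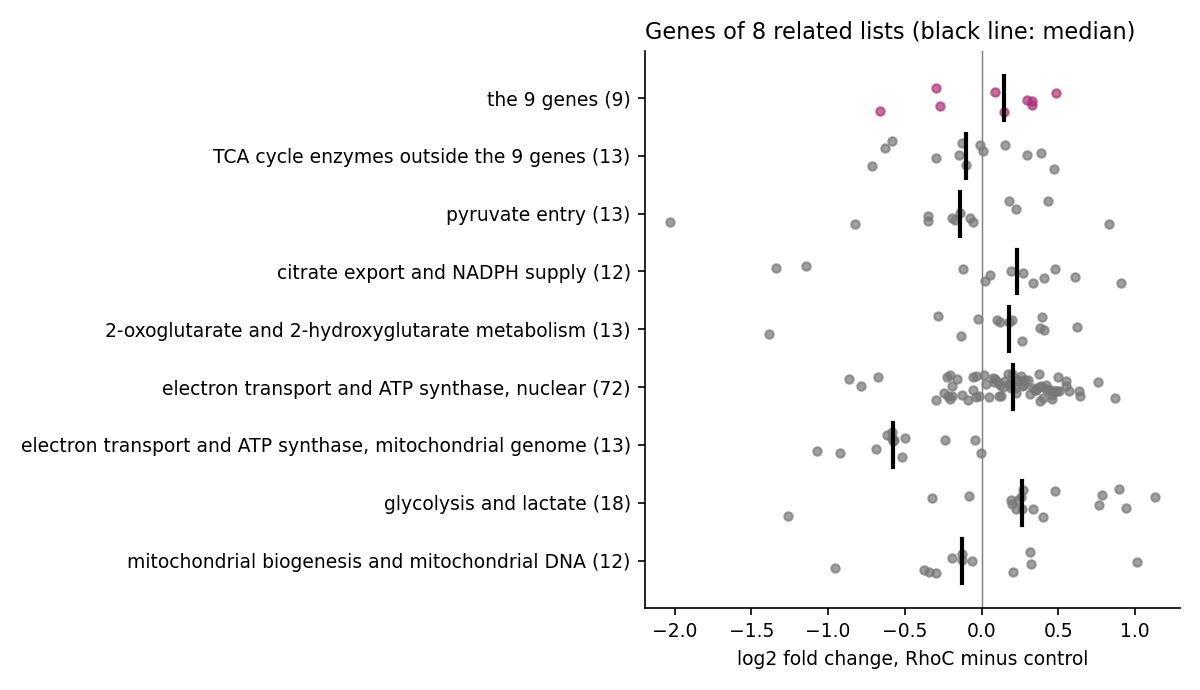
Log2 fold change (RhoC over control, edgeR) of each gene in the 8 pathway lists and of the 9 genes, with the median of each list marked. The medians ran from −0.58 for the mitochondrial genome to 0.27 for glycolysis, beside 0.14 for the 9 genes; that of the mitochondrial genome was 0.15 without control N-4.

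Marker genes of the cell types that a mammary tumor can hold were summed per tumor, and luminal markers were present in all 21 tumors. No list passed the 2-sided exact permutation test after Benjamini-Hochberg adjustment over the 10 lists, and 1, that of B and plasma cells, had an unadjusted p under 0.05. The 8 luminal markers, 8 of 8 of them lower and 0 called, summed to 1758 to 6178 CPM in controls and 1237 to 3558 CPM in RhoC tumors (mean log2 difference −0.34, exact permutation adjusted p = 0.487). Basal markers summed to 131.8 to 4103 and 185.6 to 23990 CPM (mean log2 difference 1.65, exact permutation adjusted p = 0.453), and B and plasma cell markers to 0.203 to 20.9 and 0.0836 to 6.63 CPM (−2.56, exact permutation adjusted p = 0.107). The differences of the other 7 lists lay between −0.46 and 0.64, and no list had a marker at 0 in every tumor. The part of these cell types in the *Idh2* difference was not tested.

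Around *Idh2*, 34 tested genes had their lower coordinate within 0.5 Mb of that of *Idh2*, which is its 3′ end, and none of them was called by edgeR (6 had an unadjusted p under 0.05, beside 20.5% of all genes). By these coordinates the nearest on the higher side, *Gm45203*, lies within the first intron of *Idh2* on the same strand at chr7:80110804-80112634. It had only 6 to 140 reads per tumor and averaged 1.24 ± 0.70 CPM in controls and 0.455 ± 0.27 CPM in RhoC tumors (log2 fold change −1.45, SE 0.40, edgeR adjusted p = 0.0807, DESeq2 adjusted p = 0.0112); its reads cannot be told from unspliced *Idh2* RNA. The nearest on the lower side by the same measure, *Gm44949*, which lies inside *Zfp710*, had a log2 fold change of −1.34 (SE 0.51, edgeR adjusted p = 0.159). Over only the 8 tumors with shared numbers these differences were −2.64 and −2.74. Of the other neighbours, named after their values were seen, the processed pseudogene *Gm44705* had the smallest p at −2.36 (SE 0.58, edgeR adjusted p = 0.0606), and of the protein-coding ones *Zfp710*, whose end lies closest to *Idh2* on the lower side, had 0.19 (SE 0.20, edgeR adjusted p = 0.598), *Sema4b* 1.098 (SE 0.42, edgeR adjusted p = 0.158) and *Cib1* 1.08 (SE 0.31, edgeR adjusted p = 0.0887). Of all 34 neighbours, 18 had a fitted value above 0 and 16 below, and of the 24 that are protein-coding, 16 and 8.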

How the data were processed

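Per the labels and the study's methods, total RNA of each tumor was made into stranded, rRNA-depleted libraries, and the authors aligned reads to GRCm38.p6 and deposited htseq-count counts per gene (FastQC 0.11.5, Trim Galore 0.5.0, STAR 2.6.0c and HTSeq 0.6.1p2 in the submitters' processing notes). Reads that mapped to several places or genes were dropped; strand setting and annotation release are not given in the sources used here. FPKM values were scaled by the authors and taken from their table; its fold changes and p-values, the authors' own comparisons, were not used. No value column was without a sample (0 columns). The label of R-21 names a mouse that the study's sample list gives for another tumor, not analysed here; the conflict was not settled, and R-21 was counted as the only tumor of its mouse.

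Counts of 47309780 to 100741339 per tumor were filtered by filterByExpr, scaled by TMM and fitted with edgeR 4.0.16 (glmQLFit and glmQLFTest, R 4.3.3), RhoC against control over all 21 tumors without covariates, with Benjamini-Hochberg adjustment over all 19315 genes and calls under 0.05. CPM are TMM-scaled, and log2 CPM per tumor used a prior count of 2. P-values treat tumors as replicates, although some share a mouse. Control genotypes were fitted in the controls alone. Correlations used mouse means and 100000 permutations; marker sums used exact permutation tests of 293930 labelings (scipy 1.17.1). In counts simulated for the RhoC comparison on 19315 genes, 31% of the 2-fold and 62% of the 4-fold changes were called. DESeq2 1.42.0, limma 3.58.1 (voom with mouse as a random effect), library-size scaling, no filter, counts per mouse and omission of tumors were the alternatives. The genes, lists and tests were chosen with earlier results of these data known. Named were the 9 genes, in each list the called genes or otherwise the 2 of smallest p, the 5 genes most like *Idh2*, its nearest neighbours and *Rhoc*, *Erbb2* and *Gata4*. *Gm44705*, *Zfp710*, *Sema4b* and *Cib1* were named outside this rule after their values were seen. The value of 1 gene of the cycle, left off the plot of fold changes, is not reported here. Promoter windows came from RefSeq (GRCm38.p6).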

Additional observations from a re-analysis of the deposited data

Results flagged for a closer look

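In 40 sets of values over the 9 controls, 11 held 1 tumor whose distance from the next passed Dixon's 95% critical value; chance gives about 1 in 20 for independent, normally distributed values, whereas these sets share the same tumors and were not tested for normality. None of the 9 genes was among them. In N-4, *Sucla2* was at 155.8 CPM (next highest 81.7), *mt-Nd6* at 2709 CPM (1102) and *mt-Co2* at 31.9 CPM (12.8). *Pdk1* was at 364.4 CPM in N-3 (186.2), *Cox6a1* at 78.0 CPM in N-6 (44.4), and *Slc16a1* at 409.1 CPM in N-8 (133.2). N-17 held *Adhfe1* at 14.9 CPM (2.95) and the highest summed markers of endothelial cells, at 726.5 CPM (400.3), adipocytes, at 627.7 CPM (43.9), and skeletal muscle, at 5945 CPM (495.5). N-1 held the highest summed basal markers, at 4103 CPM (1753).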

How the results depend on the processing

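The fitted differences of the 9 genes had the reported sign in 278 of 279 alternative values; the exception was *Idh3b* at 0.04 in the 8 tumors without the block. The range was −0.87 to −0.61 for *Idh2* and 0.02 to 0.66 for *Cs*. Genes called between the cohorts numbered 43, against 1439 with DESeq2, 27 with library size, 3 with counts summed per mouse, 3 with mouse as a random effect, 438 with only the 7 *Gata4* loxP/+ controls, 3 without mouse P497, 26 without the squamous carcinomas, and 14 (without N-9) to 346 (without N-15) with single tumors left out. Pathway genes called numbered 0, against 12 with DESeq2, 5 with only the 7 *Gata4* loxP/+ controls and 0 to 4 with single tumors left out. Genes called between control genotypes numbered 2 (1528 at an unadjusted p under 0.05), against 276 with DESeq2, 22 without a filter, 0 with library size and 0 to 61 with single controls left out (0 or 1 while both controls without the allele were kept; 61 and 57 with that arm at 1 tumor, assumed to vary like the rest).

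By their labels, tumors with the same number in both cohorts came from different mice, and nothing in the labels pairs them. Deviations of same-numbered tumors correlated between −0.24 and 0.02, without a comparison to tumors of unlike number. With the replicate block on those 8 tumors 0 genes were called, as without it (1346 and 2119 at an unadjusted p under 0.05); *Idh2* was at −0.87 in both. *Pdk4* turned to 0.41 with the replicate block and 0.37 without it, and *Erbb2* to 0.77 with the replicate block but −0.06 without it. Among marker sums, macrophages turned to −0.0143 with library size and −0.0723 with mouse means, and squamous keratinocytes to −0.812 and adipocytes to 0.117 with mouse means. The list medians that turned were those of the further cycle genes (−0.14 to 0.06), pyruvate entry (−0.17 to 0.10) and the mitochondrial genome (−0.75 to 0.15). The cause was not tested. With 9 and 12 tumors simulated as independent, recovery of 2-fold changes in genes drawn from all 19315 was 31%, so smaller differences could be missed. Recovery was not simulated for the 9 genes themselves or for tumors that share mice.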
